A study of Mus musculus with 23 samples.

Results

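The genes described here make or carry amino acids: 10 genes out of 54446 in the first deposited table and out of 15624 in the second. Slc7a5, Slc3a2 and Slc7a1 encode plasma membrane carriers. Asns, Phgdh, Psat1, Shmt2 and Mthfd2 encode enzymes of asparagine, serine, glycine and one-carbon synthesis, and Aldh18a1 and Pycr1 encode enzymes of proline synthesis. Members were taken by gene symbol in the first table and by the same Ensembl identifier in the second, and all 10 were found in both and passed the filter on low counts. Aldh18a1 and Slc7a1 were put on the list because they had been seen to differ between the comparisons that involve PAX4. For these 2 genes the comparisons with PAX4 KO or double KD muscle on top are therefore descriptions, with no test.

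RNA was sequenced from mouse skeletal muscle in a study of the transcription factors behind proteasome genes in denervated muscle, where loss of the nerve leads to atrophy. The first table held 3 groups of 3 libraries each: denervated muscle of PAX4 KO mice, denervated muscle of WT mice and innervated muscle of WT mice. The second table held denervated muscle only: 3 libraries of NRF1PAL-PAX4 double KD mice (double KD), 3 of NRF1PAL KD mice (NRF1 KD) and 2 of WT mice labelled con (WT con). Each denervated muscle was taken at 10 d. PAX4 is a paired box transcription factor, and NRF1, also called alpha-PAL, activates genes of mitochondria. The sources used here name no strain, age, sex or muscle, nor how the KO and KD were made.

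As background, cells short of an amino acid, or with misfolded protein in the endoplasmic reticulum, phosphorylate the translation factor eIF2. Translation then slows in general, while the messenger RNA of the transcription factor ATF4 is read more. ATF4, with a C/EBP partner, binds a short element in many genes of amino acid uptake and synthesis, and Asns is the textbook case. In muscle, amino acid supply also feeds the mTORC1 pathway of protein synthesis, and atrophying muscle releases amino acids from its own protein.

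The core of that element, written TGATGNAA here, was looked for on both strands of the RefSeq promoter windows (build GRCm38.p6), which run from 250 bases before to 50 bases after each listed start. It occurred in 3.97% of 32851 windows. Of the members 9 had a window, 11 windows in all, and 2 windows held the motif, those of Asns and Pycr1. Both are shown because they carry the match among genes that are compared below, with the motif in capitals and 120 bases each up to the start, on the minus strand, at chr6:7693210-7693329 and chr11:120643749-120643868.
Asns: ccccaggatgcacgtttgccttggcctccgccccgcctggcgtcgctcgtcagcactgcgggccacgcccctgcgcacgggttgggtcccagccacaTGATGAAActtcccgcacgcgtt
Pycr1: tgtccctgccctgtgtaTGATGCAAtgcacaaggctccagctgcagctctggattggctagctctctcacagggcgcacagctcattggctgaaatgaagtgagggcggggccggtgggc
The match lay at -23 to -16 from the RefSeq start in Asns and at -103 to -96 in Pycr1. The gene spans given below use other starts. The Asns match falls inside the Asns span, which reaches chr6:7693254. The windows of Mthfd2, Psat1 and Slc3a2 lie wholly inside the spans of these genes. A match is a description of the letters only, and its absence from the other windows says nothing of a factor's binding there.

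Depth ran from 21716216 to 42821396 counts per library in the first table and from 23740769 to 30165765 recovered reads in the second. Counts of single members ranged from 31 (Psat1, innervated WT) to 2966 (Slc3a2, PAX4 KO). Pax4 had 0 counts in each of the 9 libraries of the first table, which allows up to 3 counts per library, so it could not check the KO label. Nrf1 had 450, 427 and 454 normalised counts under the double KD label, 499, 476 and 524 under the NRF1 KD label and 488 and 444 in WT con. Its level under the NRF1 KD label thus went against that label, and below, double KD and NRF1 KD mean the libraries labelled so. None of the 8 muscle fibre markers was at 0, and their summed level was 50242 to 67632 CPM in PAX4 KO, 62716 to 76876 CPM in denervated WT and 92219 to 115145 CPM in innervated WT libraries. Nothing in the labels says which libraries came from separate animals, so the p-values measure spread among libraries, which may be technical.

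In WT muscle 10 d of denervation came with higher Mthfd2, Slc7a5, Pycr1, Asns and Slc7a1. These 5 members passed the test as higher, none as lower, where 16.5% of 16146 tested genes were called higher and 15.8% lower (edgeR's quasi-likelihood test, adjusted p under 0.05, here called). DESeq2 called 6 members higher, with 14.5% of genes higher and 14.2% lower. Between denervated PAX4 KO and denervated WT muscle the 8 members not picked from this comparison all had a positive fold change, as did 51.0% of all genes. For 7 of them, all but Shmt2, every PAX4 KO library lay above every denervated WT library. Among all genes 9.69% had such a gap upwards and 7.23% downwards. None of these 8 members passed, however, in a comparison that called 0.0186% of genes higher and 0.00% lower. At an unadjusted p under 0.05 there were 6 of the 8, all higher, beside 8.10% of genes higher and 4.84% lower at that threshold. DESeq2 called 2, Slc3a2 and Asns, with a background of 0.882% higher and 0.451% lower. In bulk muscle a change in the number of cells of a type and a change in RNA per cell cannot be told apart.

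**Figure D1:**
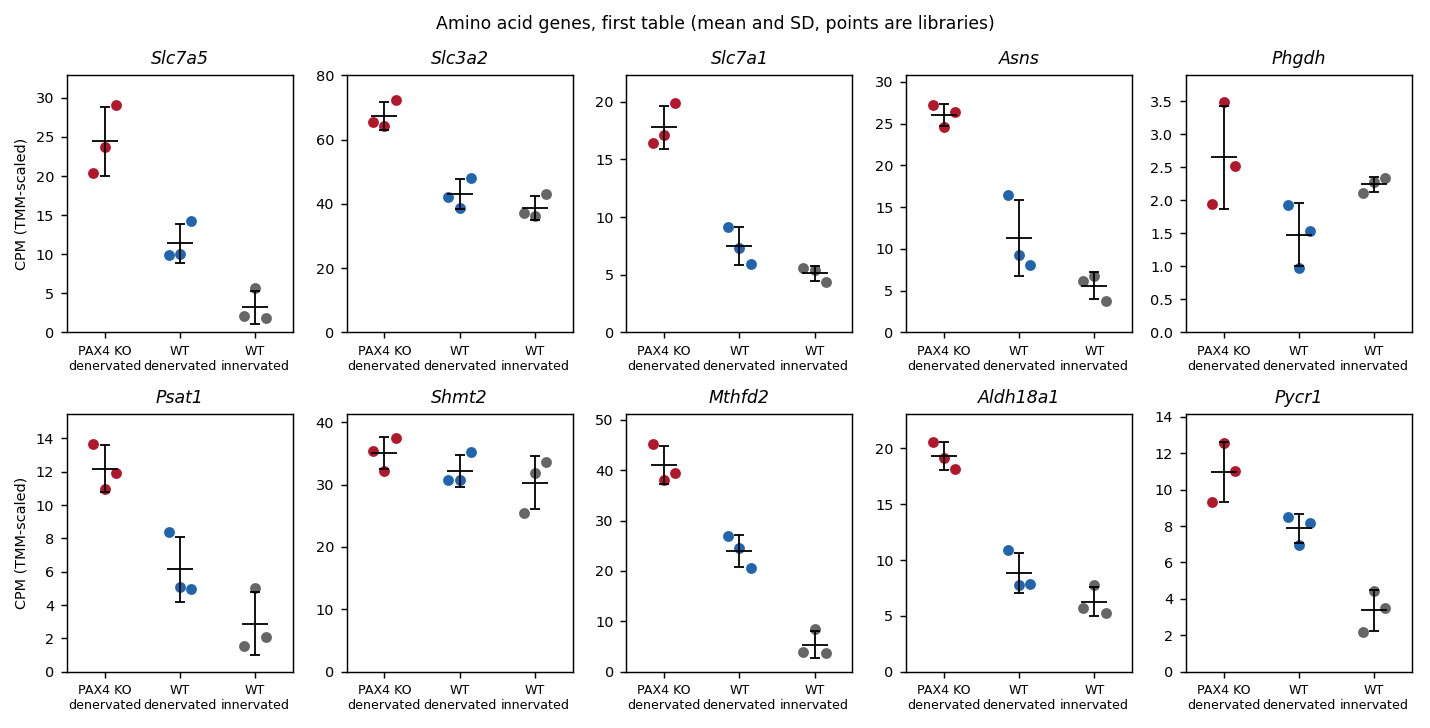
Level of each member in the first table, in CPM (counts scaled to a common library size) at TMM-scaled library sizes (vertical axis), for PAX4 KO denervated, WT denervated and WT innervated muscle; points are libraries, horizontal ticks are means and bars are SD over 3 libraries. Except for Shmt2 the red points of PAX4 KO lie above the blue points of denervated WT muscle, by the least for Phgdh (1.94 against 1.93 CPM at the nearest points).

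The carriers differed in how far denervation alone moved them. Slc7a5 (ENSMUSG00000040010, chr8:121881150-121907694; coordinates are GRCm38 and all members lie on the minus strand) encodes LAT1, which exchanges large neutral amino acids such as leucine. Its level was 20.4, 23.8 and 29.1 CPM in PAX4 KO libraries 1 to 3, against 9.87, 10.0 and 14.2 CPM in denervated WT and 2.07, 5.67 and 1.85 CPM in innervated WT libraries. The 3 groups did not overlap. Slc7a5 rose in denervated WT muscle with a log2 fold change of 1.79 ± 0.36 (SE, adjusted p = 0.00467) and stood 1.10 ± 0.34 higher in PAX4 KO than in denervated WT muscle (adjusted p = 0.296).

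Slc3a2 (ENSMUSG00000010095, chr19:8706882-8723369) encodes the CD98 heavy chain, the partner that brings LAT1 to the cell surface. It had 65.4, 64.2 and 72.5 CPM in PAX4 KO, 42.0, 38.9 and 48.1 CPM in denervated WT and 37.0, 36.3 and 43.1 CPM in innervated WT libraries. Denervated and innervated WT muscle overlapped (0.15 ± 0.12, adjusted p = 0.361), unlike for its partner chain. Slc3a2 was 0.65 ± 0.12 higher in PAX4 KO than in denervated WT muscle (adjusted p = 0.169 by edgeR and 0.00164 by DESeq2), the smallest p-value among the 8 tested members by either tool.

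Slc7a1 (ENSMUSG00000041313, chr5:148327410-148399904) encodes CAT1, a carrier of arginine, lysine and ornithine. It had 16.4, 17.1 and 19.9 CPM in PAX4 KO, 9.17, 7.33 and 5.94 CPM in denervated WT and 5.62, 5.37 and 4.36 CPM in innervated WT libraries, again with no overlap. The log2 fold change of PAX4 KO over denervated WT muscle was 1.25 ± 0.17, given as a description. The rise in denervated WT muscle was small (0.55 ± 0.18, adjusted p = 0.0379) and its call was lost when any single library of the comparison but denervated WT library 3 was left out. That comparison shares the denervated WT libraries with the one Slc7a1 was picked from.

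Asns (ENSMUSG00000029752, chr6:7675169-7693254) encodes asparagine synthetase, which makes asparagine from aspartate and glutamine. The level was 27.3, 24.6 and 26.4 CPM in PAX4 KO, 16.5, 9.26 and 8.03 CPM in denervated WT and 6.21, 6.80 and 3.77 CPM in innervated WT libraries. PAX4 KO libraries were close to each other, and denervated WT library 1 stood above the other 2 of its group. Asns rose in denervated WT muscle (1.01 ± 0.28, adjusted p = 0.0192), a call that was lost without denervated WT library 1 (0.63, adjusted p = 0.0555) or innervated WT library 3 (0.78, adjusted p = 0.0679). Over denervated WT muscle PAX4 KO muscle had 1.21 ± 0.27 more (adjusted p = 0.241), and without denervated WT library 1 the difference was 1.59 and passed (adjusted p = 0.0448). DESeq2 called it with all libraries (adjusted p = 0.00417).

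Serine synthesis starts with Phgdh and goes on with Psat1. Phgdh (ENSMUSG00000053398, chr3:98313170-98339990) was the member with the lowest level, at 1.94, 3.49 and 2.52 CPM in PAX4 KO, 1.93, 0.979 and 1.54 CPM in denervated WT and 2.12, 2.28 and 2.34 CPM in innervated WT libraries. Each denervated WT library lay below each innervated one, the only member with a gap in that direction (5 of the 10 had one upwards; over all genes 22.6% had one downwards and 23.9% upwards), but the difference did not pass (-0.59 ± 0.30, adjusted p = 0.151). Nor did PAX4 KO over denervated WT muscle (0.83 ± 0.29, adjusted p = 0.319).

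Psat1 (ENSMUSG00000024640, chr19:15904678-15947337) had 13.7, 11 and 11.9 CPM in PAX4 KO, 8.38, 5.06 and 4.97 CPM in denervated WT and 1.53, 5.04 and 2.09 CPM in innervated WT libraries. Innervated WT library 2 reached the level of the denervated group. The fold change on denervation was 1.05 ± 0.38 (adjusted p = 0.0548), and without that library it was 1.75 and passed (adjusted p = 0.00175). PAX4 KO over denervated WT muscle gave 0.99 ± 0.36 (adjusted p = 0.326).

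Shmt2 and Mthfd2 act one after the other in mitochondria, where serine gives up a carbon to folate. Shmt2 (ENSMUSG00000025403, chr10:127517123-127522444), the serine hydroxymethyltransferase, was nearly level, with 35.4, 32.2 and 37.4 CPM in PAX4 KO, 30.7, 30.7 and 35.2 CPM in denervated WT and 25.5, 31.8 and 33.7 CPM in innervated WT libraries. All 3 groups overlapped, and neither step passed (0.12 ± 0.12, adjusted p = 0.686 for PAX4 KO over denervated WT, and 0.09 ± 0.12, adjusted p = 0.629 for denervated over innervated WT). Mthfd2 (ENSMUSG00000005667, chr6:83305691-83325908), the dehydrogenase and cyclohydrolase that follows, had 45.3, 38.1 and 39.5 CPM in PAX4 KO, 26.9, 24.5 and 20.5 CPM in denervated WT and 3.84, 8.50 and 3.73 CPM in innervated WT libraries. Of the 10 members it rose the most in denervated WT muscle, 4.39-fold (2.14 ± 0.27, adjusted p = 0.000493), and in PAX4 KO muscle it stood a further 0.77 ± 0.25 higher (adjusted p = 0.304).

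Proline is made from glutamate by Aldh18a1 and then Pycr1. Aldh18a1 (ENSMUSG00000025007, chr19:40550257-40588463), which makes pyrroline-5-carboxylate, had 20.6, 19.1 and 18.1 CPM in PAX4 KO, 10.9, 7.72 and 7.88 CPM in denervated WT and 5.71, 7.73 and 5.30 CPM in innervated WT libraries. PAX4 KO muscle was apart from both WT groups, which touched each other. Its log2 fold change was 1.13 ± 0.18 for PAX4 KO over denervated WT muscle, as a description, and 0.49 ± 0.18 for denervated over innervated WT muscle (adjusted p = 0.0593), which passed without innervated WT library 2 (0.68, adjusted p = 0.0149).

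Pycr1 (ENSMUSG00000025140, chr11:120635712-120643769), the reductase of the last step, had 9.30, 12.6 and 11 CPM in PAX4 KO, 8.50, 6.94 and 8.17 CPM in denervated WT and 2.17, 4.44 and 3.49 CPM in innervated WT libraries. Here the larger gap was between denervated and innervated WT muscle, with a rise of 1.21 ± 0.23 (adjusted p = 0.0036). PAX4 KO over denervated WT muscle gave 0.48 ± 0.22 (adjusted p = 0.397).

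Set against innervated WT muscle, denervated PAX4 KO muscle had higher Mthfd2 (log2 fold change 2.91 ± 0.28), Slc7a5 (2.89 ± 0.37), Asns (2.22 ± 0.28), Psat1 (2.04 ± 0.38), Pycr1 (1.68 ± 0.23) and Slc3a2 (0.80 ± 0.12). These 6 of the 8 tested members were called by edgeR, with adjusted p from 9.97e-05 (Mthfd2) to 0.00238 (Psat1), where 21.8% of genes were called higher and 18.2% lower. Phgdh (0.23 ± 0.29, adjusted p = 0.552) and Shmt2 (0.21 ± 0.12, adjusted p = 0.204) did not pass. For 6 of the 8 tested members the libraries of these groups did not overlap and PAX4 KO was higher, where 29.0% of genes had such a gap upwards and 23.3% downwards. Aldh18a1 stood 1.62 ± 0.18 and Slc7a1 1.80 ± 0.18 above innervated WT muscle, as descriptions. This comparison uses the same libraries as the other 2 of the table, so its values are not further evidence beside theirs.

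The 8 members not picked had a median log2 fold change of 0.80 for PAX4 KO over denervated WT muscle, beside 0.01 over all tested genes. For denervated over innervated WT muscle the median over all 10 was 0.78, beside 0.02. The authors' deposited table of the same 2 comparisons also holds adjusted p-values. Between PAX4 KO and denervated WT muscle, Asns (0.00062) and Slc3a2 (0.001) were under 0.05 among the 8 members not picked. Over all genes 160 of 15253 were, or 1.05%. Aldh18a1 and Slc7a1 were under it too, but they were picked partly from this comparison, so for them this is no test. For denervation of WT muscle the authors' deposited table lists 4 members, Mthfd2, Pycr1, Slc7a5 and Asns, among 26.4% of genes.

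Markers of other cell types also differed between these groups, in directions that varied by cell type. The summed level of 8 macrophage markers was 690 to 1229 CPM in PAX4 KO, 378 to 787 CPM in denervated WT and 105 to 321 CPM in innervated WT libraries. Of the 8 markers 6 were called higher in denervated than innervated WT muscle, and none between PAX4 KO and denervated WT muscle. The summed level of 7 fibroblast markers was 3233 to 9225 CPM in PAX4 KO, 1818 to 2582 CPM in denervated WT and 1800 to 2663 CPM in innervated WT libraries. For 6 proliferation markers it was 40.8 to 80.6 CPM in PAX4 KO, 27.6 to 44.0 CPM in denervated WT and 18.6 to 27.5 CPM in innervated WT libraries, and no marker of these lists was at 0 in all libraries. Neutrophil markers, 5 in number, summed to 32.5 to 54.9 CPM in PAX4 KO, 23.6 to 132 CPM in denervated WT and 3.17 to 5.37 CPM in innervated WT libraries. The 6 satellite cell and myoblast markers summed to 4727 to 6328 CPM in PAX4 KO, 4596 to 7068 CPM in denervated WT and 2379 to 2965 CPM in innervated WT libraries, with 4 called higher and 1 lower on denervation of WT muscle. The 5 endothelial markers summed to 357 to 487 CPM in PAX4 KO, 344 to 466 CPM in denervated WT and 638 to 734 CPM in innervated WT libraries, and all 5 were called lower on denervation of WT muscle. Of the Schwann cell and the adipocyte markers, 5 each, 2 each were called lower on denervation of WT muscle, and no marker of any list was called between PAX4 KO and denervated WT muscle.

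Single libraries let both be read side by side. Denervated WT library 1 had 787 CPM of macrophage markers, above the 690 CPM of PAX4 KO library 1, and it was the highest of its group for 7 of 10 members. For all 8 members not picked, its level was below that of each PAX4 KO library. For all of these but Shmt2 this only repeats the gap between the groups given above. The distance to the nearest PAX4 KO library was small for Phgdh (1.93 against 1.94 CPM) and Shmt2 (30.7 against 32.2 CPM). The share of all genes with such an order was not counted. PAX4 KO library 2 had 9225 CPM of fibroblast markers, against 3233 and 3395 CPM in libraries 1 and 3, and was the highest of its group for 2 members, Phgdh and Pycr1. Beyond these values, the part of other cell types in the members' differences was not tested.

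**Figure D2:**
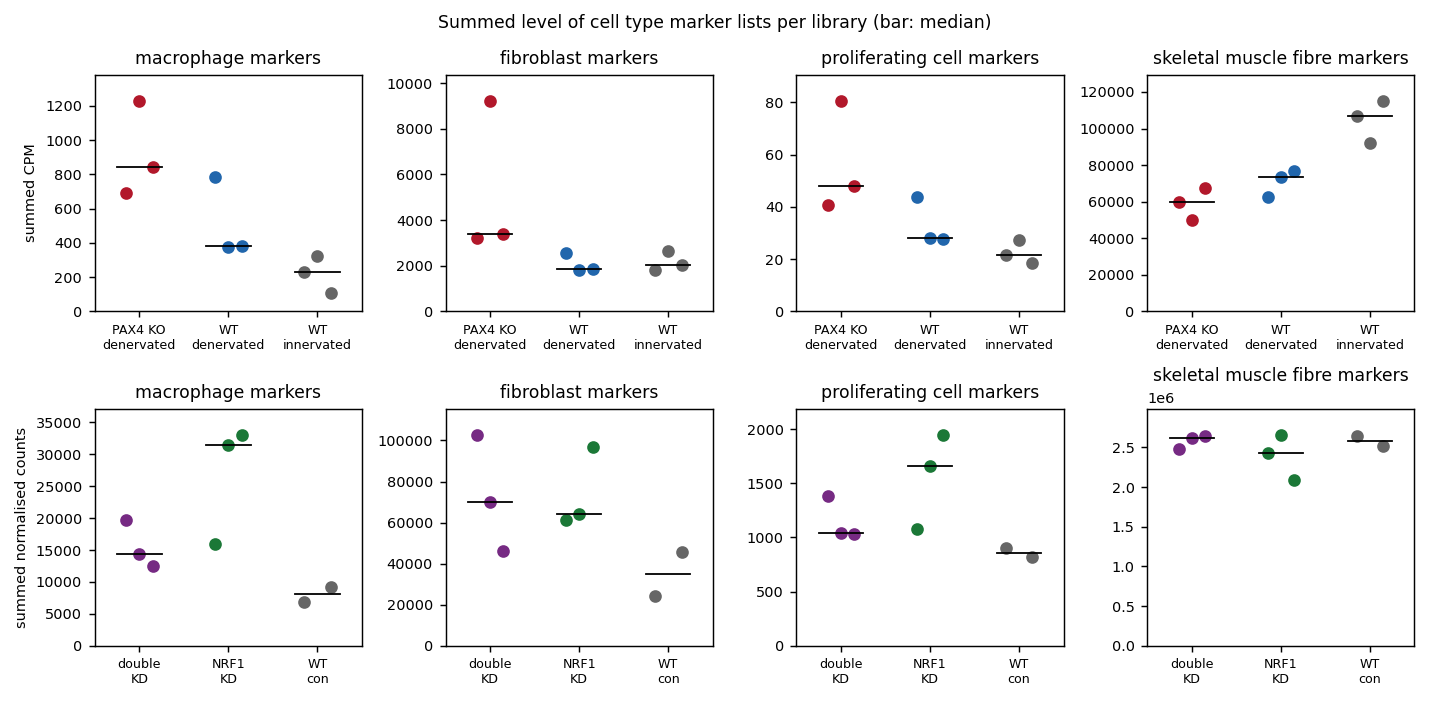
Summed level of 4 marker lists in each library (points; the bar is the median), in CPM for the first table (top row) and in normalised counts for the second (bottom row). Macrophage markers span 690 to 1229 CPM in PAX4 KO and 105 to 321 CPM in innervated WT libraries, and muscle fibre markers 50242 to 67632 CPM in PAX4 KO and 92219 to 115145 CPM in innervated WT libraries.

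In the second table Aldh18a1 and Slc7a1 had been picked partly from the double KD over NRF1 KD comparison, which uses the same NRF1 KD libraries, so their values in NRF1 KD over WT con are not independent of that choice. They were the 2 members of 10 that passed in NRF1 KD over WT con, both as higher, and none of the 8 members not picked did, where limma called 7.58% of 15624 genes higher and 3.72% lower. By edgeR on recovered reads it was 2 members, with 7.70% of genes higher and 3.05% lower. Aldh18a1 had 364, 355 and 392 normalised counts in NRF1 KD libraries 1 to 3, against 230 and 184 in WT con libraries 2 and 3. The rise was 0.84 ± 0.18 on the log2 scale (adjusted p = 0.0145). Slc7a1 had 278, 357 and 313 in NRF1 KD and 221 and 179 in WT con libraries, a rise of 0.66 ± 0.17 (adjusted p = 0.037). Neither gene overlapped between the groups, but with 2 control libraries both calls were fragile: that of Aldh18a1 was lost without NRF1 KD library 3 (adjusted p = 0.0663) or WT con library 3 (adjusted p = 0.0769), and that of Slc7a1 without NRF1 KD library 2 or 3 or either WT con library.

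The other 8 members did not pass in NRF1 KD over WT con muscle, and 7 of these 8 had positive fold changes, beside 50.1% of all genes. For Slc3a2, Pycr1, Phgdh and Psat1 every NRF1 KD library lay above both WT con libraries, where 22.5% of genes had such a gap and 23.4% the opposite one. The picked Aldh18a1 and Slc7a1 had this gap too, which makes 6 members in all. Phgdh had 33.6, 34.0 and 46.8 normalised counts in NRF1 KD, against 23.9 and 17.5 in WT con (0.85 ± 0.38, adjusted p = 0.181). Slc3a2 had 1418, 2050 and 1796 in NRF1 KD, against 1158 and 1308 in WT con (0.49 ± 0.18, adjusted p = 0.0997). The authors' deposited table lists it at an adjusted p of 0.0468, one of 3 members under 0.05 there with Aldh18a1 and Slc7a1, among 15.1% of genes. Phgdh and Slc3a2 were above WT con in each library without passing limma's test. Psat1 had 314, 509 and 354 in NRF1 KD, against 282 and 247 in WT con (0.54 ± 0.20, adjusted p = 0.106), and Pycr1 324, 385 and 272 in NRF1 KD, against 268 and 242 in WT con (0.35 ± 0.16, adjusted p = 0.197). Mthfd2 (0.30 ± 0.15, adjusted p = 0.208), Asns (0.17 ± 0.22, adjusted p = 0.674), Shmt2 (0.03 ± 0.13, adjusted p = 0.908) and Slc7a5 (-0.06 ± 0.20, adjusted p = 0.88) overlapped between the groups. NRF1 KD library 2 was the highest of its group for 8 of 10 members.

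**Figure D3:**
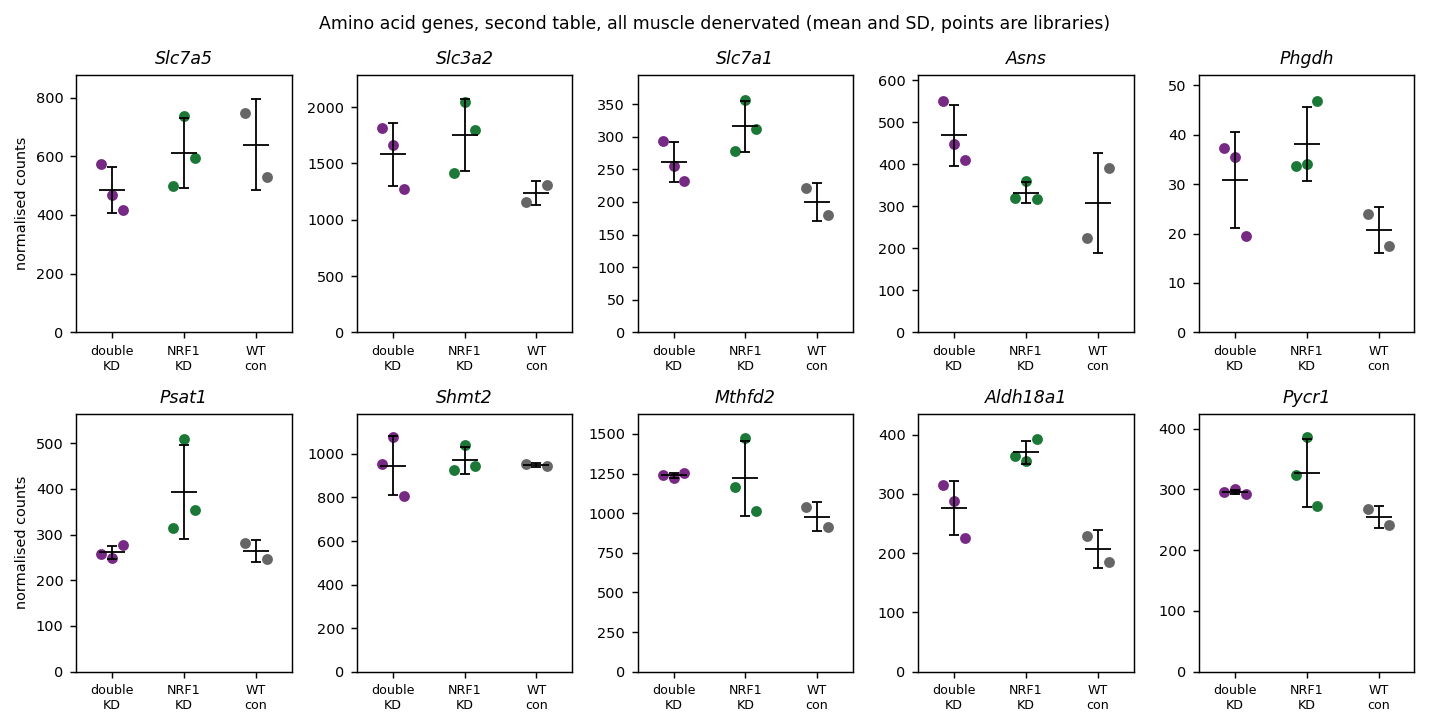
Level of each member in the second table, in normalised counts (vertical axis), for double KD, NRF1 KD and WT con muscle, all denervated; points are libraries, horizontal ticks are means and bars are SD over 3, 3 and 2 libraries. The NRF1 KD points of Aldh18a1 (355 to 392) lie above those of double KD (225 to 314) and WT con (184 to 230). This gene was picked partly from the double KD over NRF1 KD comparison, so that gap is a description.

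None of the 8 tested members passed in double KD over WT con (limma, with 2 at an unadjusted p under 0.05, beside 12.0% of genes higher and 9.49% lower, and 0 by edgeR on recovered reads), where limma called 2.39% of genes higher and 1.70% lower and edgeR 2.16% and 1.48%. Of these 8 members 3 had every double KD library above both WT con libraries, beside 18.1% of genes with that gap and 17.6% with the opposite one. Asns had 551, 448 and 410 normalised counts in double KD, 320, 361 and 318 in NRF1 KD and 224 and 392 in WT con libraries. It was the one member whose double KD libraries all lay above both other groups, at 0.65 ± 0.22 over WT con (adjusted p = 0.122) and 0.48 ± 0.20 over NRF1 KD muscle (adjusted p = 0.378). The 2 WT con libraries lay far apart, and the first of these values reached 1.05 and passed without WT con library 3 (adjusted p = 0.0264). Mthfd2 had 1238, 1223 and 1256 in double KD, against 1042 and 916 in WT con (0.34 ± 0.15, adjusted p = 0.205).

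Slc7a5 was the member that leaned lower, with 573, 468 and 419 normalised counts in double KD, 499, 736 and 596 in NRF1 KD and 749 and 530 in WT con libraries. Its groups overlapped (-0.38 ± 0.20, adjusted p = 0.309 for double KD over WT con). The remaining tested members, Slc3a2 (0.34 ± 0.18), Pycr1 (0.22 ± 0.16), Phgdh (0.52 ± 0.38), Psat1 (-0.02 ± 0.20) and Shmt2 (-0.01 ± 0.13), had adjusted p from 0.293 to 0.969 over WT con. As descriptions, Aldh18a1 stood 0.41 ± 0.18 and Slc7a1 0.38 ± 0.17 above WT con.

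Between double KD and NRF1 KD muscle, where limma called 0.0768% of genes higher and 0.0576% lower, none of the 8 tested members passed (2 at an unadjusted p under 0.05, Psat1 and Asns, beside 4.45% of genes higher and 6.78% lower, and 0 by edgeR on recovered reads, which called 0.0707% of genes higher and 0.0578% lower). Psat1 had 257, 249 and 276 normalised counts in double KD, against 314, 509 and 354 in NRF1 KD libraries, without overlap (-0.56 ± 0.18, adjusted p = 0.258). Aldh18a1 had 314, 288 and 225 in double KD, against 364, 355 and 392 in NRF1 KD, also without overlap (-0.44 ± 0.16, a description). Slc7a1 had 293, 256 and 233 in double KD, against 278, 357 and 313 in NRF1 KD, with overlap (-0.28 ± 0.16, a description). Among all genes 8.28% had a gap downwards of this kind and 8.03% upwards.

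**Figure D4:**
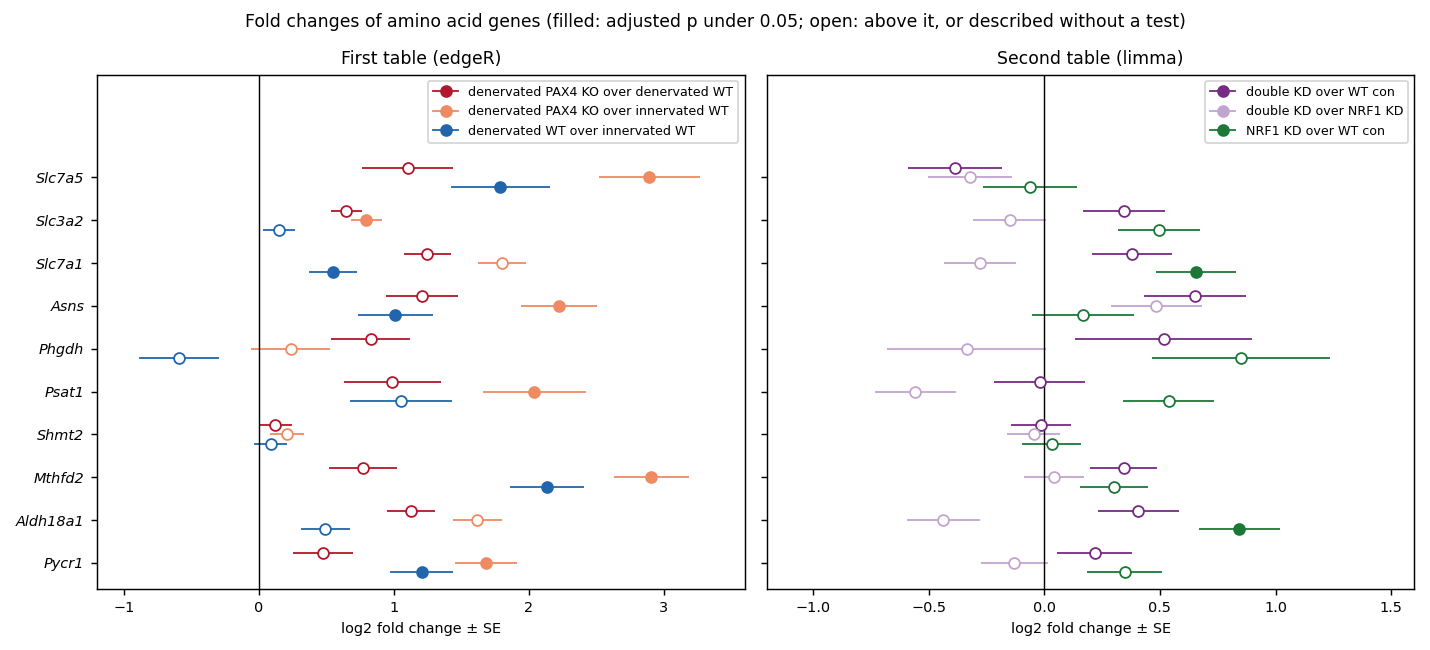
Log2 fold change of each member (horizontal axis, with SE bars) in the 3 comparisons of the first table (left) and the 3 of the second (right); filled symbols passed the test at adjusted p under 0.05, open ones did not or were described without a test. In the left panel the 10 PAX4 KO over denervated WT values run from 0.12 to 1.25, and in the right panel the double KD over NRF1 KD values run from -0.56 to 0.48.

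The 2 comparisons that differ by PAX4 are given side by side. Of the 8 members not picked, PAX4 KO over denervated WT muscle gave positive values for 8, with a median of 0.80, and double KD over NRF1 KD gave positive values for 2, Asns and Mthfd2, with a median of -0.14 beside 0.01 over all genes. Over all genes 51.0% were positive in each comparison. Aldh18a1 was at 1.13 in the first and -0.44 in the second, Slc7a1 at 1.25 and -0.28, and Psat1 at 0.99 and -0.56. Asns was positive in both, at 1.21 and 0.48. The tables were normalised separately and the WT groups differ, so the difference between the comparisons was not tested, and for Aldh18a1 and Slc7a1 it is what put them on the list.

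Macrophage markers also moved in the second table, with sums of 12564 to 19738 normalised counts in double KD, 15879 to 33020 in NRF1 KD and 6877 to 9261 in WT con libraries. All 8 macrophage markers were called higher in NRF1 KD than in WT con muscle, 1 of 8 in double KD over WT con and none between double KD and NRF1 KD. Fibroblast markers summed to 46121 to 102643 in double KD, 61405 to 96763 in NRF1 KD and 24283 to 45645 in WT con, and proliferation markers to 1027 to 1383 in double KD, 1079 to 1945 in NRF1 KD and 821 to 898 in WT con. Neutrophil markers had lower sums in both KD groups, 733 to 1661 in double KD and 1087 to 1383 in NRF1 KD, against 2044 to 2897 in WT con. In NRF1 KD over WT con 3 of the 4 listed were called higher and 1 lower, and in double KD over WT con 1 was called lower. Of 6 satellite cell and myoblast markers 2 were called lower in each KD group over WT con. No endothelial or adipocyte marker was called, and 1 of 5 Schwann cell markers was called higher, in NRF1 KD. NRF1 KD library 1, with the fewest macrophage markers of its group (15879), was the lowest of its group for 6 of the 10 members and the highest for 0, with 278 normalised counts of Slc7a1 against 357 and 313 in libraries 2 and 3. Its Aldh18a1 level (364) lay between those of the other 2 libraries (355 and 392). NRF1 KD library 3, with the most macrophage markers (33020), was the highest for 2 members and the lowest for 3. NRF1 KD library 2 (31512) was the highest for 8 and the lowest for 1. The share of all genes with such orders was not counted. Apart from these values, the part of other cell types in the members' differences was not tested.

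Neighbouring pathways showed which amino acid genes went the other way on denervation. Of 16 measured enzymes of alanine, aspartate, glutamate, ornithine and proline metabolism, 10 were called lower and 3 higher in denervated than in innervated WT muscle, with a median of -0.49, beside the 15.8% of all genes called lower and 16.5% higher. Gpt2, the mitochondrial alanine aminotransferase, was at 81.7 ± 15.7 CPM in denervated and 344 ± 112 CPM in innervated WT muscle (SD, n = 3 each, -2.07 ± 0.24, adjusted p = 0.000327). Got1 (-1.05 ± 0.16, adjusted p = 0.000989), the cytosolic aspartate aminotransferase, fell too. Asl (1.26 ± 0.17, adjusted p = 0.00067) and Ass1 (1.65 ± 0.28, adjusted p = 0.00182), which make arginine from citrulline and aspartate, and Glul (0.60 ± 0.18, adjusted p = 0.0303), the glutamine synthetase, rose.

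Of 17 genes for the breakdown of branched-chain amino acids, for which muscle is a main site, 9 were called lower, 8 were not called and none was called higher, beside 15.8% of all genes lower and 16.5% higher. Their median was -0.38, and the lowest p-values belonged to Auh (-0.78 ± 0.16, adjusted p = 0.00432), Bckdk (-0.64 ± 0.14, adjusted p = 0.00734) and Bckdhb (-0.43 ± 0.10, adjusted p = 0.0115). Auh acts on leucine breakdown, Bckdhb is a subunit of the branched-chain ketoacid dehydrogenase, and Bckdk is the kinase that inhibits it. DESeq2 likewise called 9 lower and 0 higher.

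Of 20 other plasma membrane carriers 3 were called higher and 5 lower, shares near the 16.5% and 15.8% of all genes. Slc43a2, a carrier of neutral amino acids (1.12 ± 0.14, adjusted p = 0.000479), Slc6a6, the taurine carrier (0.92 ± 0.20, adjusted p = 0.00682), and Slc38a1, a glutamine carrier (1.13 ± 0.33, adjusted p = 0.024), rose. Slc38a3, another glutamine carrier (-0.80 ± 0.11, adjusted p = 0.000748), Slc7a2, a cationic carrier like Slc7a1 (-1.47 ± 0.23, adjusted p = 0.00117), and Slc16a10, an aromatic amino acid carrier (-1.0 ± 0.16, adjusted p = 0.0015), fell. Of 16 further serine, glycine and folate enzymes 1 rose, Mthfd1l, the mitochondrial synthetase that follows Mthfd2 (1.00 ± 0.32, adjusted p = 0.0356, at 1.30 ± 0.50 CPM in denervated and 0.649 ± 0.054 CPM in innervated WT muscle). Psph, the enzyme of the last step of serine synthesis (-0.72 ± 0.14, adjusted p = 0.00347), and Aldh1l1, a cytosolic folate dehydrogenase (-0.92 ± 0.22, adjusted p = 0.0107), fell.

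Among 17 genes of eIF2 kinases, Atf4 and stress factors, 6 were called higher and 2 lower on denervation of WT muscle, beside 16.5% and 15.8% of all genes; the share of lower calls was near that of all genes. Ppp1r15a, the phosphatase subunit that reverses eIF2 phosphorylation (0.88 ± 0.12, adjusted p = 0.000669), and the transcription factors Cebpb (0.73 ± 0.15, adjusted p = 0.00536) and Atf3 (2.56 ± 0.60, adjusted p = 0.00962) rose. The messenger RNA of Atf4 itself fell to 128 ± 12.5 CPM in denervated WT muscle, against 190 ± 15.7 CPM in innervated WT muscle (SD, n = 3 each, -0.57 ± 0.12, adjusted p = 0.00475), and so did that of its partner Cebpg (-0.68 ± 0.12, adjusted p = 0.00194).

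No gene of these 5 lists was called between PAX4 KO and denervated WT muscle by edgeR, and the smallest p-values belonged to Aldh1l2 (1.06 ± 0.17, adjusted p = 0.138) and Trib3 (2.11 ± 0.36, adjusted p = 0.153). At an unadjusted p under 0.05 there were 8 stress factors (7 higher), 7 carriers (5 higher), 4 serine and folate enzymes (4 higher), 3 branched-chain genes (1 higher) and 2 of the glutamate and proline list (1 higher), beside 8.10% of all genes higher and 4.84% lower. In the same order DESeq2 called 3, 1, 1, 1 and 0 genes, all higher. Trib3, a pseudokinase and known ATF4 target, had 30.4, 21.9 and 30.1 CPM in PAX4 KO, 7.73, 6.99 and 4.37 CPM in denervated WT and 1.92, 3.73 and 0.976 CPM in innervated WT libraries. Its groups did not overlap. Aldh1l2, a mitochondrial folate dehydrogenase, averaged 8.20 ± 0.24 CPM in PAX4 KO and 3.92 ± 0.42 CPM in denervated WT muscle (SD, n = 3 each). Next by p-value in the other lists came Slc1a4 (1.41 ± 0.31, adjusted p = 0.24), Slc7a11 (1.5 ± 0.42, adjusted p = 0.283), Bcat1 (1.78 ± 0.48, adjusted p = 0.274), Bcat2 (-0.39 ± 0.13, adjusted p = 0.306), Arg1 (2.41 ± 0.99, adjusted p = 0.36) and Gpt2 (-0.54 ± 0.23, adjusted p = 0.375), with Tyms (0.86 ± 0.25, adjusted p = 0.283) and Nupr1 (0.78 ± 0.20, adjusted p = 0.264) in the lists named before. Arg1 was low and uneven, at 1.51 ± 2.06 CPM (SD, 10 to 107 counts) in PAX4 KO and 0.271 ± 0.215 CPM (2 to 20 counts) in denervated WT libraries.

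In the second table limma called 7.58% of genes higher and 3.72% lower in NRF1 KD than in WT con muscle. The stress factors Ddit3 (0.83 ± 0.12, adjusted p = 0.00421), Trib3 (1.34 ± 0.28, adjusted p = 0.0157), Atf3 (0.77 ± 0.20, adjusted p = 0.0337) and Nupr1 were called higher there, 4 of 17 with none lower. With them rose Sfxn1, the mitochondrial serine carrier (0.94 ± 0.21, adjusted p = 0.0201), Tyms, the thymidylate synthase (1.16 ± 0.28, adjusted p = 0.0272), and Slc1a5, a glutamine carrier (0.82 ± 0.22, adjusted p = 0.0413), while Slc6a6 fell (-0.71 ± 0.14, adjusted p = 0.012). In double KD over WT con limma called 2.39% of genes higher and 1.70% lower. There Ddit3 (0.63 ± 0.12, adjusted p = 0.0249), Atf3 (0.97 ± 0.20, adjusted p = 0.029), Slc1a4, a carrier of alanine and serine (1.44 ± 0.34, adjusted p = 0.0428), and Bcat1, the cytosolic branched-chain aminotransferase (1.77 ± 0.41, adjusted p = 0.0398), rose and Slc6a6 fell (-0.78 ± 0.14, adjusted p = 0.0189). The calls of Slc1a4 (adjusted p = 0.0559) and Bcat1 (adjusted p = 0.0557) were lost with edgeR on recovered reads. No gene of the 5 lists was called between double KD and NRF1 KD, and 0 by edgeR on recovered reads. At an unadjusted p under 0.05 by limma there were 5, beside 4.45% of all genes higher and 6.78% lower.

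Per kilobase of exon, Slc3a2 was the most abundant member in each group, at 19.1 ± 1.27 CPM per kb in PAX4 KO, 12.2 ± 1.33 in denervated WT and 11 ± 1.05 in innervated WT muscle (SD, n = 3 each). In denervated WT muscle Shmt2 came next with 10.4 ± 0.83 CPM per kb, within the spread of Slc3a2, and then Mthfd2 with 6.87 ± 0.93. Asns (4.11 ± 1.67) and Slc7a5 (3.07 ± 0.66) followed and overlapped within their spread, as did Aldh18a1 (2.17 ± 0.44), Pycr1 (2.00 ± 0.21) and Psat1 (1.44 ± 0.46). Slc7a1 (0.65 ± 0.14) and Phgdh (0.60 ± 0.19) were the least abundant. Mthfd2 changed its place in the order: in innervated WT muscle it had 1.54 ± 0.78 CPM per kb, level with Aldh18a1 at 1.53 ± 0.32, and in PAX4 KO muscle 11.7 ± 1.09, level with Shmt2 at 11.3 ± 0.84.

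Across the 9 libraries of the first table the mean of the members' standardised levels was 0.91 to 1.1 SD in PAX4 KO, -0.41 to 0.09 in denervated WT and -1.21 to -0.52 in innervated WT libraries. Among 8664 other genes averaging 8 CPM or more, the 5 whose level followed this mean most closely were Aebp1 (Pearson r = 0.982), Rbfox2 (0.979), Thbs3 (0.977), Mfap4 (0.974) and Pdia6 (0.973), over 9 libraries that share the 3 groups. These values are a description, since the groups alone set much of the likeness. The mean also includes Aldh18a1 and Slc7a1, which were picked for a difference that involves PAX4 KO, so its place in PAX4 KO libraries is partly set by that choice. Aebp1, Thbs3 and Mfap4 encode matrix or matrix-associated proteins, Rbfox2 a splicing factor and Pdia6 a disulfide isomerase of the endoplasmic reticulum.

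5 members overlap another annotated gene, while no source used here states the kit's strand: Aldh18a1 with Gm15801, Mthfd2 with Gm43890, Psat1 with Gm3329, Shmt2 with Ndufa4l2 and Slc7a5 with Gm20388. How reads from such stretches were assigned was not tested.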

How the data were processed

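RNA of mouse skeletal muscle was taken with TRIzol and made into libraries with a SMARTER mRNA-Seq kit, per the labels' protocols. The builds GRCm38 and mm10 are named in the submitters' processing notes; no aligner or counting tool is named there or in the labels. For the first table the authors deposited raw counts per gene in 9 libraries. For the second the authors deposited variance-stabilised log2 values in 8 libraries, and a signal column that is the mean of counts over size factors, per the file headers. The p-value columns are those of the authors' deposited comparisons, as are their log2 fold changes.

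The log2 values were inverted to normalised counts, which matched the deposited mean within 3.34e-07%, and 100% of the reads recovered were whole to within 0.05. Raw counts of 16146 genes kept by filterByExpr were tested in edgeR 4.0.16 (R 4.3.3; quasi-likelihood F test, TMM), and normalised counts of 15624 genes in limma 3.58.1 on log2(value + 1), each with all 3 groups in 1 fit and Benjamini-Hochberg adjustment over all genes. Fold changes of the second table are on that log2(value + 1) scale. Adjusted p-values, log2 fold changes and their standard errors come from these fits unless another tool is named. DESeq2 1.42.0, edgeR on recovered reads, other filters and pseudocounts, and leaving out libraries were alternatives. The fits were tested on simulated data.

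Columns of the first table were tied to groups by their names, not to single samples, and libraries are numbered in ascending order of the number in the name. 6 samples without a column were not analysed here: WT con library 1, 2 labelled WT Innervated and 3 at 14 d. The members and gene lists were chosen with earlier results of these data known. Named genes were all members, in each list and direction at most 3 called genes with the lowest adjusted p (failing any call, the 2 lowest p), and the 5 most alike; Nupr1 in NRF1 KD was named outside this rule, after its value was seen. 1 gene that this rule names is not reported here.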

Additional observations from a re-analysis of the deposited data

Results flagged for a closer look

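Aldh18a1 and Psat1 had values of opposite sign in the 2 comparisons that differ by PAX4, with no overlap between libraries in either. Of 14511 genes in both tables, 1.28% had such gaps, higher in PAX4 KO and lower in double KD muscle, and 0.861% the reverse. Aldh18a1 had a log2 fold change of 1.13 in PAX4 KO over denervated WT muscle and of -0.44 in double KD over NRF1 KD muscle. Psat1 had 0.99 in PAX4 KO over denervated WT muscle and -0.56 in double KD over NRF1 KD muscle, and passed neither test (adjusted p = 0.326 by edgeR and 0.258 by limma). The difference between the comparisons was not tested, because the tables were normalised separately. Aldh18a1 was chosen for this difference.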

How the results depend on the processing

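Counts of called members kept within 1.5 times under most alternatives, with these exceptions. For PAX4 KO over denervated WT muscle the 8 tested members gave 0 calls, but 2 with DESeq2 (127 genes higher and 65 lower), 5 with no filter on low counts (348 and 108) and 3 without denervated WT library 1 and innervated WT library 2 together (105 and 64, chosen after seeing the data). Why the count of calls differs between these was not tested. For NRF1 KD over WT con there were 2 calls, against 1 with only the 2 groups fitted. For double KD over WT con the genes called were 146 and 85 with only the 2 groups fitted, and for double KD over NRF1 KD 1 and 0 with a pseudocount of 0.1 or a mean of at least 50, and 45 and 34 with only the 2 groups fitted.

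Leaving out each library in turn gave these ranges of calls. Denervated over innervated WT had 3 to 6 members, 1741 to 2692 genes higher and 1768 to 2591 lower. PAX4 KO over denervated WT had 0 to 1 members, 1 to 16 genes higher and 0 to 10 lower. PAX4 KO over innervated WT had 6 members throughout. NRF1 KD over WT con had 0 to 3 members, 415 to 1190 genes higher and 126 to 421 lower. Double KD over WT con had 0 to 1 members, 46 to 474 genes higher and 40 to 248 lower, and double KD over NRF1 KD had 1 to 69 genes higher and 0 to 124 lower. With 2 WT con libraries, leaving out 1 leaves a lone sample whose spread is taken from the other groups.

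The deposited headers give denervated and innervated WT libraries the same 3 numbers, but no label says what a number marks. Same-numbered libraries had correlations of 0.18, 0.09 and 0.36, each the highest of its library, a hint of pairing from the data, but 1 was under 0.1 so they were not treated as pairs, and those of the second table ran from -0.22 to 0.14. A replicate block left 5 members called on denervation, 0 in NRF1 KD over WT con (513 genes higher and 117 lower), 0 in double KD over WT con (80 and 56) and 0 in double KD over NRF1 KD (7 and 2).

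Log2 fold changes of members that changed sign when 1 library was left out, none of them called, ranged as follows. Shmt2 ran from -0.028 to 0.16 on denervation of WT muscle, from -0.020 to 0.066 in NRF1 KD over WT con, from -0.11 to 0.096 in double KD over WT con and from -0.15 to 0.064 in double KD over NRF1 KD. Phgdh ran from -0.0079 to 0.41 in PAX4 KO over innervated WT. In NRF1 KD over WT con Slc7a5 ran from -0.31 to 0.19 and Asns from -0.24 to 0.57. Psat1 ran from -0.11 to 0.075 in double KD over WT con, and Mthfd2 from -0.084 to 0.19 in double KD over NRF1 KD. With edgeR on recovered reads Psat1 (0.0082) and Shmt2 (0.025), and with the block Psat1 (0.058), changed sign in double KD over WT con. The cause was not tested.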
